A study of Mus musculus with 14 samples.

Results

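The 10 genes described here encode the adult globin chains and proteins that make, bind or break down haem or that store iron. They were taken by name from the deposited gene table, which lists 32289 genes, and all 10 were found there. They are the alpha globins Hba-a1 and Hba-a2, the beta globins Hbb-bs and Hbb-bt, the haem synthesis enzyme gene Alas2, the haem oxygenase gene Hmox1, the plasma protein genes Hp and Hpx, and the ferritin genes Fth1 and Ftl1. Their transcripts were measured by bulk RNA sequencing of ascending aorta from C57BL/6 mice killed in week 6 of a thoracic aneurysm model. The 4 groups were PBS (3 libraries), BAPN (4 libraries), BAPN with Cilengitide (3 libraries) and BAPN with SB273005 (4 libraries). BAPN, β-aminopropionitrile, inhibits lysyl oxidases, the enzymes behind collagen and elastin cross-links, and the labels call both other compounds inhibitors of integrin αV. All mice of the last 2 groups also received BAPN, and the labels give no dose. Nothing in the labels ties each sample to an animal of its own, and p-values here cover the spread among the libraries, which may be technical.

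Haemoglobin carries oxygen in red cells as a tetramer of alpha and beta chains, each holding a haem group. Red cell precursors make the haem through ALAS2, the erythroid form of the enzyme that starts haem synthesis, and young red cells still carry globin mRNA. When red cells break up, haptoglobin binds free haemoglobin and hemopexin binds free haem, and macrophages take up both complexes. Haem oxygenase 1 then opens the haem ring, and the released iron is stored in ferritin, a shell of heavy (FTH1) and light (FTL1) chains, or exported through ferroportin. In mouse and other mammals, iron also sets how much ferritin and ALAS2 protein is made from a given amount of mRNA, so the levels below do not give the amounts of protein.

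Levels are the deposited FPKM, a fragment count divided by transcript length and by library size, and differences are log2 fold changes ± SE from edgeR's quasi-likelihood test on the estimated counts. A gene was called changed at a Benjamini-Hochberg adjusted p under 0.05 over 13294 genes, those reaching 1 FPKM in 3 or more libraries. All 10 genes passed that filter. Total counts were 49027885 to 72584877 per library. Libraries of the same group differed by more than sampling noise in all 18 pairs. The libraries also fell into 2 sets that the labels do not give. Umod, a kidney gene, lay between 7.73 and 11.6 FPKM in the PBS libraries and SB273005 replicates 1 to 3, and between 19.8 and 25.8 in the remaining 8. The MHC class II gene H2-Ea was listed at 0 in the first set and at 1.27 to 1.96 FPKM in those 8. What parts the sets was not tested. Set and group cannot be told apart in BAPN vs PBS and in BAPN+Cilengitide vs PBS. They are also largely mixed in BAPN+SB273005 vs BAPN and in BAPN+SB273005 vs BAPN+Cilengitide. There, replicate 4 is the only SB273005 library in the set of the other group.

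Among the 10 genes, the differences from PBS that passed the test were higher Hmox1 and Ftl1 and lower Hpx in both inhibitor groups. Hmox1 averaged 7.06 ± 1.49 FPKM (SD, n = 3) in PBS, 24.1 ± 10.9 (n = 3) with Cilengitide and 18.6 ± 7.46 (n = 4) with SB273005. Ftl1 averaged 390 ± 57.6, 763 ± 115 and 827 ± 265 FPKM in the same groups. Hpx averaged 31.4 ± 38.5, 0.913 ± 0.345 and 2.32 ± 1.01 FPKM. PBS replicate 3, at 1.81 FPKM of Hpx, lay within the SB273005 range, and both Hpx calls ended without PBS replicate 1 or 2. None of the SB273005 calls was kept in an edgeR fit of that group and PBS alone. The adjusted p there was 0.0567 for Hmox1, 0.0703 for Ftl1 and 0.0857 for Hpx. In the group given BAPN alone, none of the 10 passed the test, and none passed between any 2 of the groups that received BAPN. The globins and Alas2 varied together from library to library over a range far wider than any gap between groups.

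The edgeR test called 3 of the 10 genes in BAPN+Cilengitide vs PBS, where 5.58% of all tested genes were called. It also called 3 of the 10 in BAPN+SB273005 vs PBS, where the share of all tested genes was 13.2%. Both shares move with single libraries: with any 1 left out they ran from 0.82% to 9.4% and from 3.75% to 15%, each lowest without PBS replicate 2. For BAPN vs PBS it called 0 of the 10, against 0.233% of all tested genes, and 8 of the 10 had an unadjusted p under 0.05. DESeq2 called 1 of them there, Hmox1, and limma called 0. Between the groups that received BAPN, edgeR, DESeq2 and limma each called 0 of the 10. The edgeR shares of all tested genes were 0% for BAPN+Cilengitide vs BAPN, 0.0301% for BAPN+SB273005 vs BAPN and 0% for BAPN+SB273005 vs BAPN+Cilengitide. The genes of the 10 with an unadjusted p under 0.05 numbered 6, 1 and 0 in those 3 comparisons. The comparisons share their control libraries, so they are not independent of each other. EdgeR counts for the gene lists below are to be read beside the same shares.

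**Figure D1:**
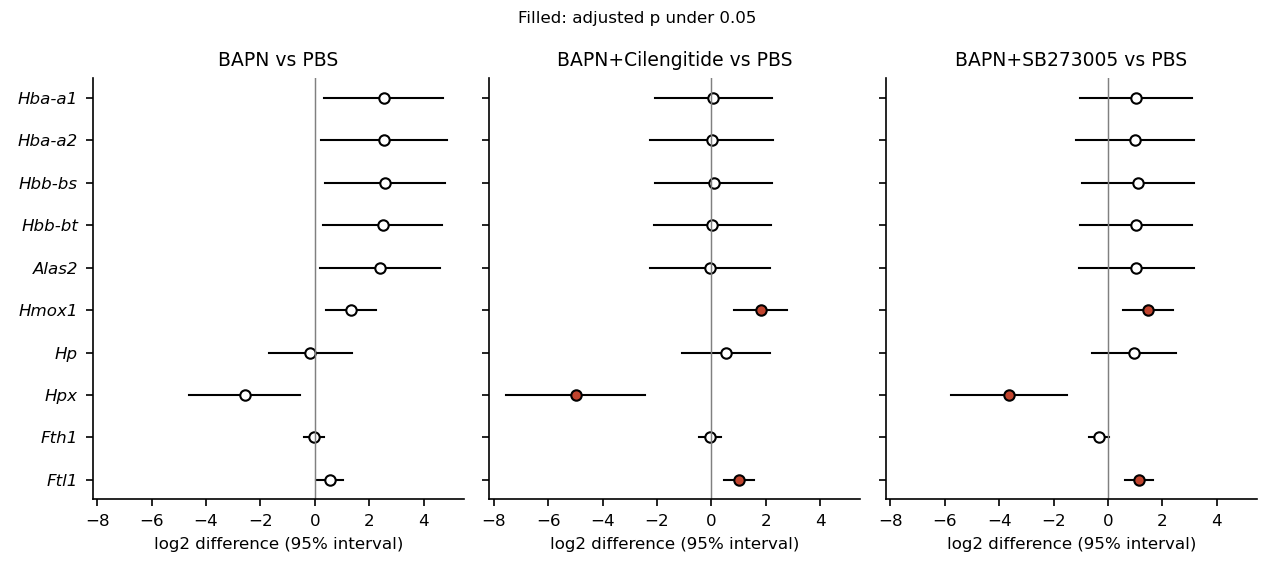
Log2 differences of the 10 genes from PBS in the 3 groups that received BAPN, with approximate 95% intervals (horizontal lines) and a filled point where the adjusted p is under 0.05. Hmox1, Hpx and Ftl1 are filled in both inhibitor groups and no gene is filled for BAPN alone, while the intervals of the globins and Alas2 are several log2 units wide.

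The 4 adult globins lie in 2 clusters, and within each cluster the copies are nearly the same sequence. Hba-a1 (chr11:32283511-32284465, plus strand, mm10) and Hba-a2 (chr11:32296489-32297298, plus strand) differ at 1 of 426 coding bases in the GENCODE vM21 transcripts. Hbb-bs (chr7:103826534-103827928, minus strand) and Hbb-bt (chr7:103812524-103813996, minus strand) differ at 1 of 441. Reads from a shared stretch can be assigned to either copy, so the level of each single copy is uncertain and the sum of a pair is firmer. Alas2 lies on chromosome X (X:150547375-150570638, plus strand). Because these 5 genes moved together, the bases just before 3 of their starts are shown, from the RefSeq promoter table on GRCm38.p6. They are Hba-a2 at chr11:32296242-32296488 on the plus strand, Hbb-bs at chr7:103827929-103828178 on the minus strand and Alas2 at chrX:150547167-150547374 on the plus strand. Capitals mark GATAA, the core of the site for GATA factors, CCAAT, the CACCC box bound by erythroid KLF1, and the TATA-type box ATATAA, on either strand.
Hba-a2: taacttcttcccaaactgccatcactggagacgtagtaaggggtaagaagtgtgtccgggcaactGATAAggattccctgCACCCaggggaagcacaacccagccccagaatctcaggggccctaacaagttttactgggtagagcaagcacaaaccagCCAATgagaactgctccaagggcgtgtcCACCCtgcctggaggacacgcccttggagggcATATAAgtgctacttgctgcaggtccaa
Hbb-bs: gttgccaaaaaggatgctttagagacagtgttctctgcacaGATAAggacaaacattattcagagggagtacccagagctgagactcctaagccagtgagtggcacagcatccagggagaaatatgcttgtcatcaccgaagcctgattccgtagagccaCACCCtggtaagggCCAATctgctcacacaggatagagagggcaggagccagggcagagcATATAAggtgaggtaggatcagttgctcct
Alas2: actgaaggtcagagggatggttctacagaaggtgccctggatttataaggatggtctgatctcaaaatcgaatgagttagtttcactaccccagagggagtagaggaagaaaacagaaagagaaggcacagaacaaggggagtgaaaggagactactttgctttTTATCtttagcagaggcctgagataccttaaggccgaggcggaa
The table had a window, from 250 bases before to 50 after the start, for 8 of the 10 genes (9 windows). All 4 globin windows held each of the 4 motifs at least once. Over all 32851 windows of that length, 25.4% held GATAA, 37.4% CCAAT, 57.5% CACCC and 9.82% ATATAA on either strand. The Alas2 window held 1 GATAA and 3 CACCC matches, and the CACCC matches lie beyond the printed bases. The Hba-a1 and Hba-a2 windows share an unbroken run of 297 bases. A match is a description of the letters and not a bound site.

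Hba-a1 was at 181.8, 159.2 and 42.1 FPKM in PBS replicates 1 to 3. In BAPN replicates 1 to 4 it was at 146.6, 537.0, 1708 and 511.2. With Cilengitide it was at 236.0, 107.2 and 47.4, and with SB273005 at 323.4, 71.8, 39.9 and 570.6. BAPN replicate 3 held the most in any library and SB273005 replicate 3 the least, a 42.8-fold range, and each group overlapped every other. Hba-a2 was at 158.6, 141.6 and 34.2 FPKM in PBS, 125.2, 468.3, 1523 and 439.9 in BAPN, 196.5, 99.9 and 32.1 with Cilengitide, and 276.0, 62.2, 25.0 and 490.7 with SB273005. The same libraries were high and low as for Hba-a1. Hbb-bs, the more abundant of the beta genes, was at 176.0, 172.2 and 43.1 FPKM in PBS, 158.8, 510.4, 1869 and 520.6 in BAPN, 233.3, 116.1 and 52.0 with Cilengitide, and 345.9, 87.5, 39.3 and 603.8 with SB273005. Hbb-bt was at 101.9, 96.2 and 22.01 FPKM in PBS, 82.1, 266.0, 1012 and 260.8 in BAPN, 124.5, 66.4 and 27.8 with Cilengitide, and 181.0, 47.6, 23.4 and 322.2 with SB273005. In each group the highest library was several times the lowest. Alas2 followed the globins at a far lower level, with 2.41, 1.70 and 0.396 FPKM in PBS, 1.29, 5.39, 18.9 and 5.36 in BAPN, 2.61, 1.13 and 0.398 with Cilengitide, and 3.84, 1.44, 0.412 and 6.10 with SB273005. BAPN replicate 3 was again the highest.

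**Figure D2:**
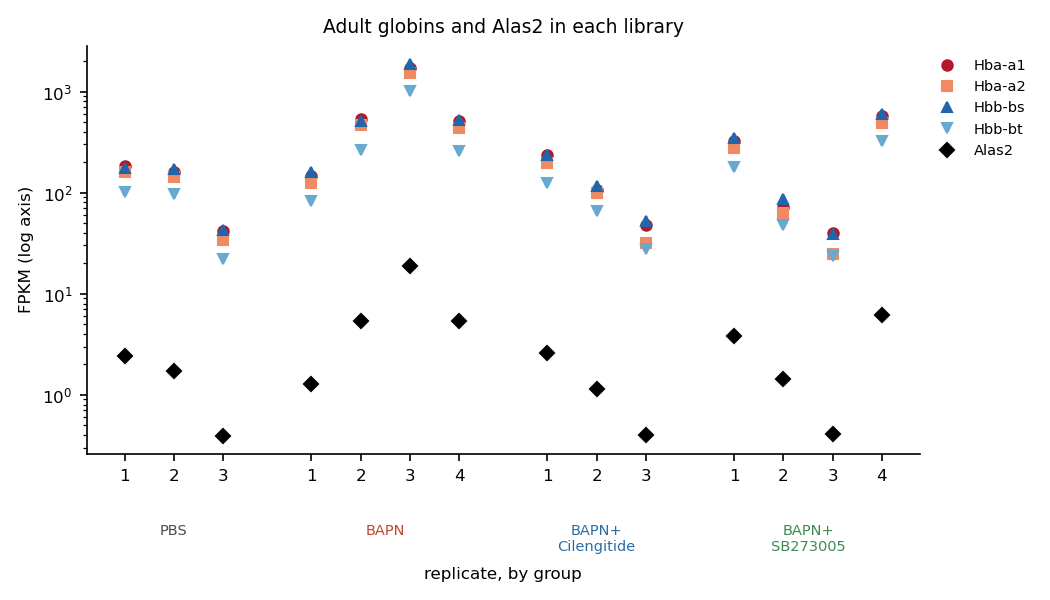
FPKM of the 4 adult globins and Alas2 in each of the 14 libraries, on a log axis, with replicates ordered by number within each group. The points of the 5 genes keep the same order of libraries, nearly throughout, with BAPN replicate 3 highest for each of them (1869 FPKM for Hbb-bs, 18.9 for Alas2).

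The summed level of the 4 globins ran from 127.7 FPKM in SB273005 replicate 3 to 6112 in BAPN replicate 3, or 0.0106% to 0.503% of all counts. The means were ordered BAPN (2535.0 ± 2456.0 FPKM, SD, n = 4), SB273005 (877 ± 861, n = 4), Cilengitide (446 ± 319, n = 3) and PBS (443 ± 262, n = 3), and no neighbours in that order differed beyond their spread. Against PBS, the summed alpha genes of BAPN differed by 2.54 ± 1.04 on the log2 scale (adjusted p = 0.338) and the summed beta genes by 2.55 ± 1.02 (adjusted p = 0.32) in edgeR's test. Alas2 differed by 2.40 ± 1.03 (adjusted p = 0.369). The intervals reached from 0.36 to 4.74 for the beta genes, so these libraries leave the size of the difference wide. In BAPN+Cilengitide vs BAPN the alpha and beta sums differed by -2.49 ± 1.04 and -2.49 ± 1.01 (adjusted p = 0.796 for both). With SB273005 the differences from BAPN were -1.52 ± 0.90 for alpha and -1.47 ± 0.88 for beta (adjusted p = 0.413 and 0.416).

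Ratios within the group were far steadier than the levels. Alpha over beta FPKM stayed between 0.992 and 1.29 over the 14 libraries while the sum ranged from 127.7 to 6112 FPKM. Hba-a1 over Hba-a2 ran from 1.07 to 1.6, and Hbb-bs over Hbb-bt from 1.68 to 2.0. Alas2 was at 2.5 to 5.36 FPKM per 1000 FPKM of globin, highest in SB273005 replicate 2. Across the 14 libraries, the globins correlated with each other at r = 0.996 to 0.999 on the log2(FPKM + 1) scale and with Alas2 at r = 0.974 to 0.984. These are descriptions over libraries of all groups, and the copies also share reads. In bulk tissue, fewer cells of a type and less RNA per cell cannot be told apart.

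Of the other listed red cell genes, Slc4a1, Klf1, Gata1 and Hbb-y were near 0 in all libraries, while more widely expressed ones such as Mkrn1 (9.13 to 13.5 FPKM) and Fech (3.87 to 5.02) were not. Of 27 such genes in the table, 6 passed the filter, and several of these are expressed in many tissues. By edgeR, 0 of the 6 were called in BAPN vs PBS (1 at an unadjusted p under 0.05, 1 called higher by DESeq2, 0 by limma). Car2, a carbonic anhydrase, rose in BAPN+Cilengitide vs PBS (1.01 ± 0.20, adjusted p = 0.0158) and in BAPN+SB273005 vs PBS (0.66 ± 0.19, adjusted p = 0.0408). Slc25a37, mitoferrin 1, which brings iron into mitochondria, rose in the latter (1.00 ± 0.27, adjusted p = 0.0328). The Car2 calls ended without PBS replicate 2, among other libraries, and the Slc25a37 call without any 1 PBS library or SB273005 replicate 3. The SB273005 call of Car2 was kept in 4 of 14 fits with 1 library left out. The list summed to 34.9 to 37.8 FPKM in PBS, 35.0 to 45.4 in BAPN, 35.2 to 37.8 with Cilengitide and 34.7 to 35.4 with SB273005. Slc4a1, the anion exchanger of the red cell membrane, was at 0.0552 to 0.287 FPKM. Klf1 and Gata1, transcription factors of red cell precursors, did not pass 0.206 and 0.0607 FPKM. The embryonic globin gene Hbb-y was listed at 0 in 13 libraries. Bpgm, which controls the oxygen affinity of haemoglobin, was highest in BAPN replicate 3 at 10.7 FPKM.

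The genes whose levels were most like the globin sum were only loosely so. Thoc6 and Fhl3 led with r = 0.739 each over the 14 libraries, followed by Gm9797 (0.720), Ccl11 (0.701) and Mrpl46 (0.696). For Alas2 the leading gene was the predicted gene Gm14719 (0.777).

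Alas2 was also split between a pair of coding transcripts. ENSMUST00000066337, of 2037 bases, and ENSMUST00000112715, of 1892 bases, both have 11 exons. They differ in exon 1 (111 against 27 bases), exon 3 (123 against 78 bases) and exon 11 (311 against 295 bases). It held 59.5%, 66.2% and 39.8% of the Alas2 count in BAPN replicates 2, 3 and 4. It held 41.3%, 26.1% and 42.6% in SB273005 replicates 1, 2 and 4, and was listed at 0 in the other 8 libraries, including all of PBS and Cilengitide. The 6 libraries with the shorter transcript include the 5 highest in Alas2, and the part of the Alas2 read count in this split was not tested. BAPN replicate 1 and Cilengitide replicate 1, at 1.29 and 2.61 FPKM, both listed it at 0, while SB273005 replicate 2, at 1.44 FPKM, did not.

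Hmox1 (chr8:75093621-75100589, plus strand), the stress-induced haem oxygenase, was at 8.77, 6.31 and 6.09 FPKM in PBS. In BAPN replicates 1 to 4 it was at 15.9, 29.6, 8.90 and 16.9. With Cilengitide it was at 36.1, 21.2 and 15.0, and with SB273005 at 18.4, 28.5, 10.5 and 16.9. All 11 libraries with BAPN were above the 3 PBS libraries, though BAPN replicate 3 at 8.90 FPKM lay close to PBS replicate 1 at 8.77. Hmox1 rose by 1.82 ± 0.45 on the log2 scale in BAPN+Cilengitide vs PBS (adjusted p = 0.0342) and by 1.48 ± 0.42 in BAPN+SB273005 vs PBS (adjusted p = 0.0387), by edgeR. In BAPN vs PBS the difference was 1.34 ± 0.42 with a 95% interval of 0.43 to 2.26 (adjusted p = 0.185, or 0.0307 by DESeq2). The group means were ordered Cilengitide, SB273005, BAPN and PBS, and the first 3 did not differ beyond their spread. BAPN replicate 3, the library with the most globin, had the least Hmox1 of any library with BAPN.

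Both calls of Hmox1 rest on few libraries. The Cilengitide call ended without any 1 of PBS replicates 1, 2 or 3 or Cilengitide replicates 1 or 2, with differences of 1.42 to 2.07 and adjusted p up to 0.143. The SB273005 call ended without any 1 of PBS replicates 1, 2 or 3, SB273005 replicates 1 or 2, BAPN replicate 4 or Cilengitide replicate 2, with differences of 1.15 to 1.67 and adjusted p up to 0.124. Within the set of libraries low in Umod, PBS against SB273005 replicates 1 to 3, the difference was 1.54 (adjusted p = 0.078). Il1b, an inflammatory cytokine gene, was most like Hmox1 over the 14 libraries (r = 0.951), followed by Litaf (0.904), Il17ra (0.898), Ccl17 (0.897) and Sprr1a (0.892).

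**Figure D3:**
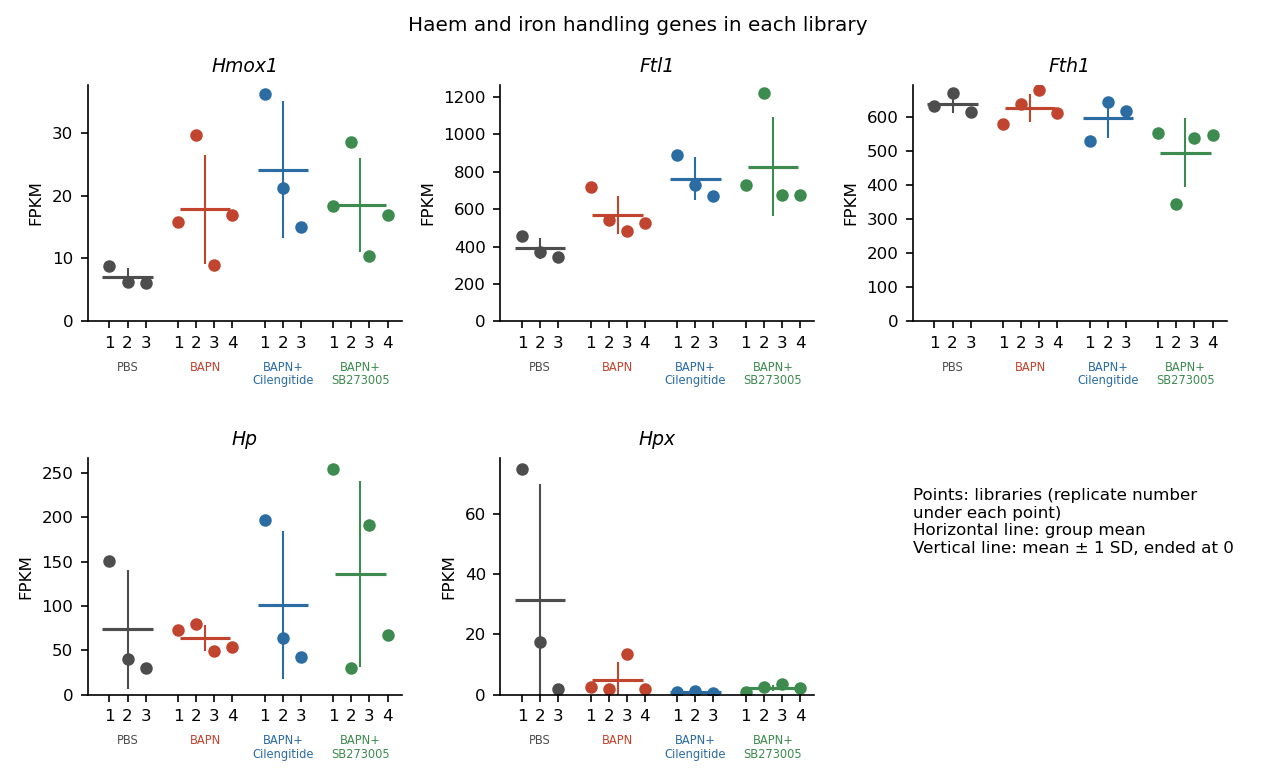
FPKM of Hmox1, Ftl1, Fth1, Hp and Hpx in each library on linear axes from 0, with group means (horizontal lines) and 1 SD (vertical lines). Hmox1 and Ftl1 are lowest in the 3 PBS libraries, Fth1 and Ftl1 of SB273005 replicate 2 stand apart at 344.9 and 1223 FPKM, and Hpx is highest in PBS replicates 1 and 2 (74.9 and 17.4 FPKM).

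The ferritin genes were the most abundant of the 10 in most libraries, and they moved apart. Ftl1 (chr7:45457944-45459884, minus strand), the light chain, was at 455.3, 369.8 and 345.7 FPKM in PBS. In BAPN it was at 718.1, 543.7, 485.8 and 524.7, with Cilengitide at 892.2, 727.7 and 670.3, and with SB273005 at 729.6, 1223, 677.0 and 678.4. All libraries with BAPN were above all PBS libraries. Ftl1 rose by 1.01 ± 0.25 in BAPN+Cilengitide vs PBS (adjusted p = 0.0342) and by 1.16 ± 0.24 in BAPN+SB273005 vs PBS (adjusted p = 0.00982). With BAPN alone it differed by 0.55 ± 0.23 (adjusted p = 0.369). The SB273005 call was kept with any 1 library left out, with differences of 0.86 to 1.24 and adjusted p of 0.00671 to 0.0482. It was not kept in a fit of those 2 groups alone (adjusted p = 0.0703) or against SB273005 replicates 1 to 3 (1.26, adjusted p = 0.0791). The Cilengitide call ended without any 1 of PBS replicates 1, 2 or 3 or Cilengitide replicates 1 or 2, with differences of 0.90 to 1.10 and adjusted p up to 0.129.

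Fth1 (chr19:9980598-9985092, plus strand), the heavy chain, was at 633.6, 670.6 and 616.6 FPKM in PBS and at 579.9, 638.5, 679.6 and 611.2 in BAPN. With Cilengitide it was at 530.9, 644.7 and 619.8, and with SB273005 at 552.6, 344.9, 540.1 and 547.5. The 4 SB273005 libraries lay below all PBS and all BAPN libraries, with differences of -0.32 ± 0.17 from PBS (adjusted p = 0.245) and -0.29 ± 0.16 from BAPN (adjusted p = 0.381). In BAPN vs PBS the difference was -0.03 ± 0.17, with a 95% interval of -0.40 to 0.35. Over the 14 libraries, 66.6% of the Fth1 count was assigned to 1 retained-intron transcript, ENSMUST00000237316, and 14.9% to the coding transcript ENSMUST00000025563. The Fth1 level is therefore that of all its transcripts together.

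The ratio of Ftl1 to Fth1 FPKM was 0.611 ± 0.0939 in PBS (SD, n = 3), 0.916 ± 0.226 in BAPN (n = 4), 1.30 ± 0.333 with Cilengitide (n = 3) and 1.84 ± 1.14 with SB273005 (n = 4). It was 3.55 in SB273005 replicate 2 and 1.24 to 1.32 in the other 3 libraries of that group. Ftl1-ps1, a processed copy of Ftl1, stayed at 36.0 to 39.6 FPKM per 1000 FPKM of Ftl1 in all libraries, and reads can pass between the copies, so the split between them is uncertain. After that copy, the genes most like Ftl1 were Sirpa, a receptor of macrophages and other myeloid cells (r = 0.969), Cyth4 (0.965), Scarf2 (0.959) and Arl11 (0.957). Those most like Fth1 were Hspb7 (0.972), Ramp1 (0.968), Itga3 (0.967), Inpp5a (0.966) and the smooth muscle actin gene Acta2 (0.965). SB273005 replicate 2 was the lowest library for Fth1 (344.9 FPKM) and Acta2 (548) and the highest for Ftl1 (1223). These r values thus lean on that library, and r without it was not computed.

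Most macrophage genes, like Ftl1, were higher in both inhibitor groups than in PBS. Most smooth muscle genes, like Fth1, were lowest in SB273005 replicate 2. Of 13 tested macrophage genes, 1 was called higher in BAPN vs PBS, 11 in BAPN+Cilengitide vs PBS and 12 in BAPN+SB273005 vs PBS. With any 1 library left out, 0 to 7, 6 to 12 and 10 to 12 were called higher, and 0 to 1 lower with SB273005. In BAPN vs PBS 12 had an unadjusted p under 0.05. Timd4 went the other way by edgeR, by -0.23 ± 0.66 with BAPN and -1.78 ± 0.74 with Cilengitide (adjusted p = 0.952 and 0.191). Its lowest level, 0.0516 FPKM, was in SB273005 replicate 2. In BAPN+SB273005 vs PBS, 12 of the 13 genes were above PBS, 0 were called lower and 13 had an unadjusted p under 0.05. The median log2 differences of the 13 genes were 1.46, 2.05 and 2.03, beside medians of 0.00, -0.02 and 0.02 over all tested genes. The summed level of all 15 listed macrophage genes was 165 to 314 FPKM in PBS, 338 to 808 in BAPN, 526 to 1049 with Cilengitide and 543 to 1143 with SB273005, and none was at 0 throughout. Summed smooth muscle genes were at 10041 to 11714 FPKM in PBS, and lowest in SB273005 replicate 2 at 3905. That library had the most Ftl1 and the least Fth1. In BAPN+SB273005 vs PBS 3 of the 7 smooth muscle genes fell and 1 rose, while 0 were called by edgeR in the other 2 comparisons with PBS (0 and 2 at an unadjusted p under 0.05). With any 1 library left out, 0 to 5 fell and 0 to 1 rose with SB273005. The falls of Lmod1, Smtn and Myh11 and the rise of Eln were not called in a fit of those 2 groups alone (adjusted p = 0.0849, 0.148, 0.184 and 0.111). The calls of Smtn and Eln ended without any 1 PBS library or SB273005 replicate 1, that of Lmod1 without PBS replicate 2, and that of Myh11 in all but 3 of 14 such fits. Of 8 platelet genes 2 passed the filter, and 1, Pf4, rose in all 3. Its call in BAPN vs PBS (1.44, adjusted p = 0.0201) ended without any 1 of PBS replicates 1, 2 or 3 or BAPN replicates 1, 2 or 4, with adjusted p up to 0.144. The part of either cell type in the Hmox1, Ftl1 and Fth1 differences was not tested.

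Ferritin and ALAS2 mRNAs are known for the iron-responsive element, a hairpin in the 5′ leader that iron regulatory proteins bind when iron is scarce. Its sequence is shown for 3 of the 10 genes and for the ferroportin gene Slc40a1, since these 4 genes have it in common. It was searched as a C, any 5 bases and CAGTGN, with 5 paired bases on each side of the loop, and capitals mark the bulged C and the loop.
Fth1: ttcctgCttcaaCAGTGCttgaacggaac
Ftl1: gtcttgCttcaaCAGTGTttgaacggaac
Alas2: ttggttCgtcctCAGTGCagggcaacagg
Slc40a1: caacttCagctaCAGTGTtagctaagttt
The Fth1 element lies at chr19:9982732-9982760 (plus strand, GRCm38, GENCODE vM21) and that of Ftl1 at chr7:45459779-45459807 (minus strand). The Slc40a1 element lies at chr1:45925465-45925493 (minus strand). That of Alas2 crosses the junction of exons 1 and 2, between X:150547458 and X:150552149. Such an element was found in 62 of the 51409 coding transcripts with a leader of at least 30 bases, or 0.121%. RNA levels do not show whether the element was bound. Of the 4 genes, Ftl1 alone passed the test against PBS in any group. Slc40a1 differed by 2.45 ± 0.91 with Cilengitide (adjusted p = 0.142) and by 2.2 ± 0.87 with SB273005 (adjusted p = 0.112).

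Hpx (chr7:105591613-105600137, minus strand), the plasma haem scavenger made mostly by the liver, was at 74.9, 17.4 and 1.81 FPKM in PBS. In BAPN it was at 2.66, 1.89, 13.6 and 1.74, with Cilengitide at 0.812, 1.30 and 0.629, and with SB273005 at 1.03, 2.40, 3.49 and 2.36. PBS replicates 1 and 2 were far above PBS replicate 3, which lay within the range of the SB273005 libraries. Hpx fell by 4.99 ± 1.18 on the log2 scale in BAPN+Cilengitide vs PBS (adjusted p = 0.0295), where the groups did not overlap. It fell by 3.65 ± 0.98 in BAPN+SB273005 vs PBS (adjusted p = 0.0307), where they did. In BAPN vs PBS the difference was -2.58 ± 0.94 (adjusted p = 0.272). Without PBS replicate 1 the differences were -3.40 with Cilengitide and -2.06 with SB273005, and neither was called. The first call also ended without PBS replicate 2 or any 1 Cilengitide library, and the second without PBS replicate 2 or SB273005 replicates 1, 2 or 4, with adjusted p up to 0.122 and 0.163.

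The genes most like Hpx over the 14 libraries were all typical of the liver. They were Mat1a (r = 0.985), Ambp (0.982), Apoa1 (0.982), Apoa4 (0.979) and Serpina3k (0.977). Alb, serum albumin, was at 123, 68.4 and 6.24 FPKM in PBS, 8.02, 5.49, 22.9 and 5.73 in BAPN, 2.03, 3.61 and 1.19 with Cilengitide and 2.47, 5, 16.3 and 9.49 with SB273005. It was thus high in the same PBS libraries and, among BAPN libraries, in the same replicate 3 as Hpx. Of 18 liver genes, 0 were called in BAPN vs PBS by edgeR (11 at an unadjusted p under 0.05, 2 called lower by DESeq2). In BAPN+Cilengitide vs PBS 6 fell, with a median of -2.76 over the list. In BAPN+SB273005 vs PBS 12 fell, with a median of -2.62. The summed level of the list was 153 to 786 FPKM in PBS, 143 to 271 in BAPN, 146 to 164 with Cilengitide and 78.2 to 260 with SB273005, and no listed gene was at 0 throughout. With Cilengitide, Rbp4 (mean 64.9 FPKM) and Cyp2e1 (62.7) made up most of that sum, beside 2.28 for Alb. Cyp2e1 was the only 1 of the 18 above PBS there (30.7 FPKM in PBS, 1.09 ± 0.41, adjusted p = 0.15). The sum therefore does not follow the list as a whole. With any 1 library left out, 0 to 10 of these genes fell with Cilengitide and 0 to 14 with SB273005. The part of liver RNA in the Hpx differences was not tested.

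**Figure D4:**
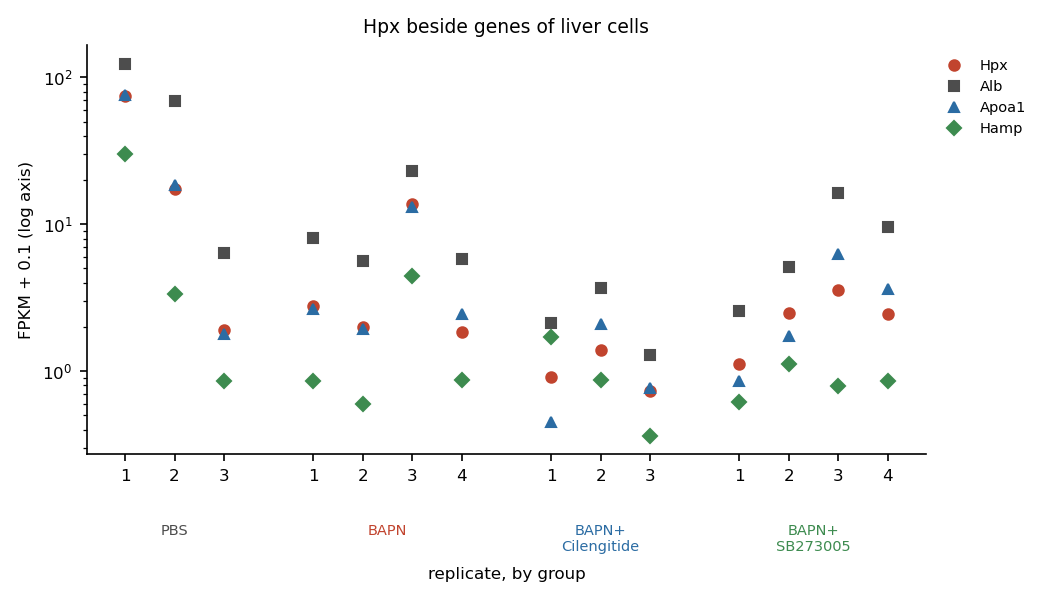
FPKM + 0.1 of Hpx and of 3 genes expressed mainly in liver, Alb, Apoa1 and Hamp, in each library on a log axis. Hpx, Alb and Apoa1 are high in PBS replicates 1 and 2 and, within the BAPN group, in replicate 3 (13.6 FPKM for Hpx).

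Hp (chr8:109575128-109579172, minus strand), the plasma haemoglobin scavenger, did not share this pattern. It was at 150.7, 40.7 and 29.6 FPKM in PBS, 72.4, 79.6, 49.2 and 54.1 in BAPN, 197.0, 64.0 and 42.0 with Cilengitide and 254.6, 30.2, 191.0 and 67.6 with SB273005. All groups overlapped. The differences from PBS were -0.16 ± 0.70 for BAPN, 0.53 ± 0.75 for Cilengitide and 0.96 ± 0.72 for SB273005 (adjusted p = 0.967, 0.759 and 0.407). Lrg1, another plasma glycoprotein gene, was most like it (r = 0.952), followed by Llgl2 (0.919), Aacs (0.918), Ganab (0.906) and Ruvbl2 (0.903). Fat cells also make haptoglobin, and the summed level of 12 adipocyte genes was 264 to 436 FPKM in PBS, 294 to 834 in BAPN, 474 to 812 with Cilengitide and 315 to 1037 with SB273005. In that list 1 gene, Fabp4, was called, higher in BAPN+SB273005 vs PBS (1.31 ± 0.39, adjusted p = 0.0434). That call ended without any 1 PBS library, among others, and was kept in 5 of 14 fits with 1 library left out. Neutrophil precursors hold haptoglobin too, and of 13 neutrophil and marrow granule genes 4 passed the filter. By edgeR 0 of these 4 were called in BAPN vs PBS (3 at an unadjusted p under 0.05, 3 called higher by DESeq2, 0 by limma), and 3, S100a8, S100a9 and Csf3r, rose in each inhibitor group. In PBS these averaged only 0.0445, 0.150 and 0.194 FPKM, and S100a8 did not pass 1.35 FPKM in any library. They passed the filter only through libraries with BAPN, so the filter itself favours a rise over PBS. With any 1 library left out, 0 to 3 rose with Cilengitide and 3 with SB273005. With Cilengitide, all 3 calls ended without PBS replicate 2, that of Csf3r also without Cilengitide replicates 1 or 2, and that of S100a9 also without PBS replicate 1, BAPN replicate 2 or any 1 Cilengitide library. S100a8 and S100a9 were not called in a fit of Cilengitide and PBS alone (adjusted p = 0.0543 and 0.0845). In BAPN+SB273005 vs PBS, both were called in a fit of those 2 groups alone (adjusted p = 0.0471 and 0.0459). They were not called there with only SB273005 replicates 1 to 3 (adjusted p = 0.0719 and 0.0717). The 13 genes summed to 1.1 to 7.8 FPKM in PBS, 5.98 to 9.54 in BAPN, 4.6 to 8.25 with Cilengitide and 7.65 to 10.8 with SB273005, and Ly6g was listed at 0 in 10 libraries. The part of adipocytes or neutrophils in the Hp values was not tested.

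The groups of these 10 genes that did not overlap in FPKM numbered 2 in BAPN vs PBS (Hmox1 and Ftl1), against 14.6% of all tested genes. There were 3 in BAPN+Cilengitide vs PBS (Hmox1, Ftl1 and Hpx), against 31.9%, and 3 in BAPN+SB273005 vs PBS (Hmox1, Ftl1 and Fth1), against 23.2%. In BAPN+Cilengitide vs BAPN there was 1 (Hpx, lower, against 10.5%), in BAPN+SB273005 vs BAPN 1 (Fth1, lower, against 7.87%), and between the inhibitors 0, against 6.53%. These shares are near the background, so the counts say little about the 10 genes as a list.

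Among 20 other tested genes of iron uptake, storage and export, most were not called. In all, 3 rose in BAPN+Cilengitide vs PBS and 0 fell, where 5.58% of all tested genes were called. In BAPN+SB273005 vs PBS 4 rose and 2 fell, where the share of all tested genes was 13.2%. EdgeR called 0 in BAPN vs PBS, with 6 at an unadjusted p under 0.05, while DESeq2 called 3 higher and limma 0. The medians were 0.28, 0.13 and 0.29 for BAPN, Cilengitide and SB273005. Slc11a1, NRAMP1, an iron transporter of the phagosome, was at 1.23 ± 0.282 FPKM in PBS (SD, n = 3), 4.92 ± 2.09 with Cilengitide and 5.27 ± 2.90 with SB273005. It rose by 2.04 ± 0.44 (adjusted p = 0.0222) and 2.17 ± 0.43 (adjusted p = 0.00849). Heph, hephaestin, a ferroxidase that works with ferroportin, rose by 1.38 ± 0.31 (adjusted p = 0.0237) and 1.65 ± 0.30 (adjusted p = 0.00579). Hfe, a partner of the transferrin receptor, was at 4.18 to 4.58 FPKM in PBS and at 5.41 to 10 in all libraries with BAPN. Hfe rose by 0.88 ± 0.17 with Cilengitide (adjusted p = 0.0142) and 0.82 ± 0.16 with SB273005 (adjusted p = 0.00864), and differed by 0.77 ± 0.16 with BAPN alone (adjusted p = 0.0537).

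The SB273005 calls of Slc11a1, Heph and Hfe were kept with any 1 library left out and against SB273005 replicates 1 to 3 alone (adjusted p = 0.0327, 0.0294 and 0.0309). The Cilengitide calls were not. That of Slc11a1 ended without PBS replicates 2 or 3 or Cilengitide replicates 1 or 2, with adjusted p up to 0.0921. That of Heph ended without PBS replicates 1 or 2 or Cilengitide replicates 2 or 3, with adjusted p up to 0.0922. That of Hfe ended without PBS replicate 2 or Cilengitide replicate 1, with adjusted p up to 0.0575. Tfrc, the transferrin receptor that brings iron into cells, was at 2.62, 3.29 and 1.76 FPKM in PBS and at 1.58, 0.935, 1.4 and 1.63 with SB273005. It fell by 0.83 ± 0.21 on the log2 scale (adjusted p = 0.0231), a call that ended without PBS replicate 1 or 2. Hamp, hepcidin, the liver hormone that closes ferroportin, fell by 3.75 ± 1.07 with SB273005 (adjusted p = 0.0376). It was at 30.1, 3.23 and 0.754 FPKM in PBS, the order of Hpx and Alb, and at 0.516 to 1.02 with SB273005. PBS replicate 3 thus lay within the SB273005 range, and whether the Hamp call holds with 1 library left out was not examined. With any 1 library left out, 0 to 6 genes of the list rose with Cilengitide and 3 to 6 with SB273005.

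**Figure D5:**
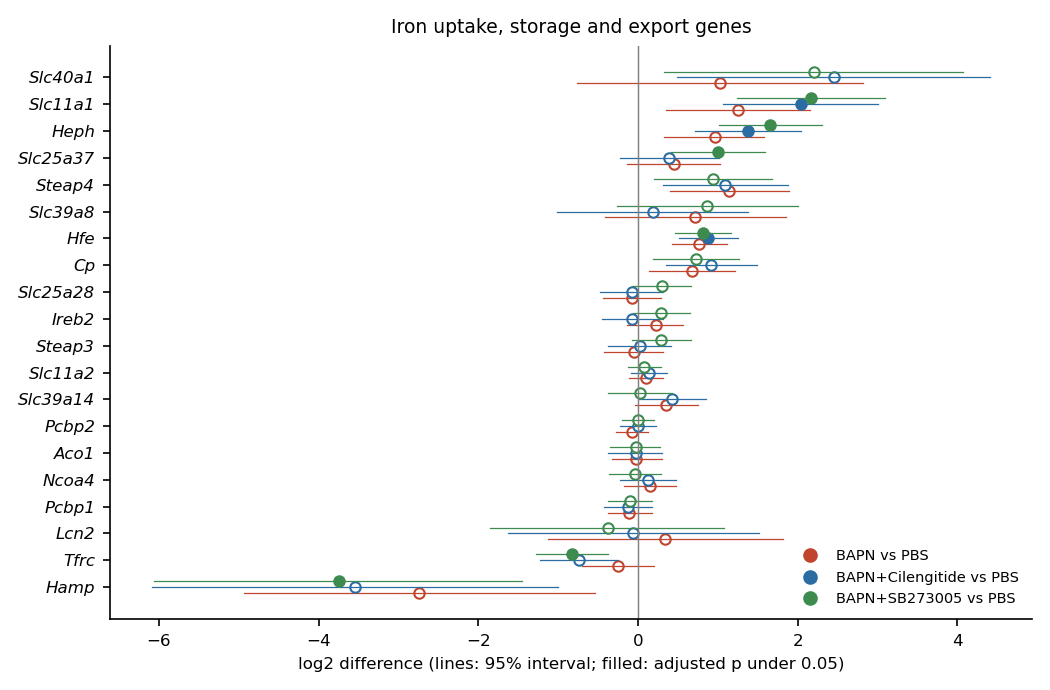
Log2 differences from PBS of 20 other genes of iron uptake, storage and export in the 3 groups that received BAPN, with approximate 95% intervals and filled points where the adjusted p is under 0.05. Slc11a1, Heph and Hfe are filled in both inhibitor groups, and Hamp and Tfrc lie to the left of 0 in all 3.

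Genes of haem synthesis did not pass the test in any of the 3 comparisons with PBS. Of 8 tested genes, edgeR, DESeq2 and limma each called 0, and 0 had an unadjusted p under 0.05 by edgeR. Alas1, the housekeeping form of the enzyme encoded by Alas2, was at 3.68 to 8.68 FPKM over the 14 libraries, and Fech, ferrochelatase, which puts iron into the ring, at 3.87 to 5.02. In haem transport and breakdown, 1 of 12 tested genes rose in BAPN+Cilengitide vs PBS, Lrp1 (0.57 ± 0.15, adjusted p = 0.0487), the receptor for haem bound to hemopexin. In BAPN+SB273005 vs PBS 3 rose and 1 fell. The shares of all tested genes called in these comparisons were 5.58% and 13.2%. Abcg2, which can export haem and porphyrins, rose by 0.67 ± 0.18 (adjusted p = 0.0314), Lrp1 by 0.49 ± 0.14 (adjusted p = 0.0425) and Bach1, a haem-binding repressor of Hmox1, by 0.52 ± 0.16 (adjusted p = 0.0441). Slc48a1, a haem transporter of lysosomes, fell by 0.32 ± 0.10 on the log2 scale (adjusted p = 0.0434). Of the 12, edgeR called 0 in BAPN vs PBS, with 2 at an unadjusted p under 0.05, and DESeq2 called 1 higher and 1 lower. These calls are close to the threshold. Those of Lrp1, Abcg2 and Slc48a1 ended without any 1 PBS library, and that of Bach1 without PBS replicates 1 or 2, among others. Of 14 fits with 1 library left out, the Lrp1 call was kept in 2 with Cilengitide and 1 with SB273005. The SB273005 calls of Abcg2, Slc48a1 and Bach1 were kept in 9, 4 and 2 of them. With any 1 library left out, 0 to 1 genes of the list rose with Cilengitide and 0 to 2 with SB273005. Cd163, the macrophage receptor for haemoglobin bound to haptoglobin, was at 1.06 to 10.7 FPKM, lowest in SB273005 replicate 2 and highest in BAPN replicate 4.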

How the data were processed

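Bulk RNA sequencing of 14 libraries in 4 groups was analysed. Per the submitters' processing notes, the tools were HISAT2 2.2.1 and StringTie 2.1.6 and the genome build was mm10. For the annotation release, the read filters and whether counting used strand, the answer is not given in the sources used here. The authors deposited FPKM and estimated counts for genes and transcripts; the deposited counts are whole numbers, and 99.995% of gene counts equal the sum over their transcripts. Groups were taken from the sample titles, and all deposited sample columns were mapped.

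Counts were tested with edgeR 4.0.16 (R 4.3.3, TMM, glmQLFit and glmQLFTest, group as the only term) in 1 fit of all 14 libraries, for 13294 genes with an FPKM of at least 1 in 3 or more libraries. These held at least 98.84% of each library's count. P-values were Benjamini-Hochberg adjusted over those genes with a threshold of 0.05. SE is the log2 difference divided by the root of F, and 95% intervals are approximate. The test was also run on simulated counts. These were drawn without the 2 sets of libraries, so that run does not cover the mixing of set and group. DESeq2 1.42.0, limma 3.58.1 on log2(FPKM + 1) and log2(FPKM + 0.1), no filter, DESeq2 size factors, 2 groups alone, a replicate block, globins left out of library sizes, copies summed and each library left out were alternatives. Fits within the sets of libraries high or low in Umod were also run, that of the 8 high libraries chosen after seeing the data, as were the alternatives for single list genes.

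The members and gene lists were chosen with earlier results of these data known. The text names the 10 genes, up to 4 genes of each list with the smallest p, and the 5 genes most like each pattern by Pearson r of log2(FPKM + 1). Hamp, Slc40a1, Alas1, Fech, Cd163, Alb, Apoa1, Rbp4, Cyp2e1, Timd4, Ly6g, Mkrn1 and the single red cell genes given by their range were chosen after their values were seen. Umod and H2-Ea are named only to mark the 2 sets of libraries. Python 3.11.15, pandas 2.3.3, numpy 2.4.6 and matplotlib 3.10.9 were used.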

Additional observations from a re-analysis of the deposited data

Results flagged for a closer look

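In groups of 4 libraries, 20 sets of values of the 10 genes were examined for a single library far from the others, and chance alone marks about 1 in 20. Hpx in BAPN replicate 3 was at 13.6 FPKM, and the next highest library of that group was at 2.66. Fth1 in SB273005 replicate 2 was at 345 FPKM, and the next lowest was at 540. Ftl1 in the same library was at 1223 FPKM, and the next highest was at 730.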

How the results depend on the processing

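For the 10 genes in 6 comparisons, 1420 values were recomputed: 1331 kept their direction and their side of the threshold, 47 lost the call, 1 gained it and 41 changed sign. In BAPN vs PBS, DESeq2 called 1 of the 10 instead of 0. In BAPN+Cilengitide vs PBS, 0 were called with no filter on FPKM, and 0 to 3 with any 1 library left out (0 without PBS replicates 1 or 2 or Cilengitide replicates 1 or 2, 1 without PBS replicate 3). In BAPN+SB273005 vs PBS, 1 was called with no filter or by limma with either pseudocount, 0 in a fit of the 2 groups alone or of PBS and SB273005 replicates 1 to 3, and 1 to 3 with any 1 library left out (1 without PBS replicates 1 or 2 or SB273005 replicates 1 or 2).

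Counts of all genes called moved more. BAPN vs PBS had 31 in the reported fit, 480 by DESeq2, 3 with no filter, 16 by limma, 105 with 2 groups, 141 with the replicate block and 2 to 186 with any 1 library left out (lowest without PBS replicate 2, highest without SB273005 replicate 2). BAPN+Cilengitide vs PBS had 742, 1465 by DESeq2, 421 with no filter and 109 to 1249 with 1 left out (lowest without PBS replicate 2, then 194 and 211 without Cilengitide replicates 1 and 2, highest without SB273005 replicate 2). BAPN+SB273005 vs PBS had 1754, 2607 by DESeq2, 1006 with no filter, 534 with 2 groups and 532 for PBS against SB273005 replicates 1 to 3. With 1 left out that comparison had 498 to 1988 (498 without PBS replicate 2, 932 without PBS replicate 3). BAPN+SB273005 vs BAPN had 4, 395 by DESeq2, 12 or 1 by limma, 0 with no filter or 2 groups, 20 with the replicate block, 0 to 79 with 1 left out (highest without SB273005 replicate 4) and 32 in the 8 libraries high in Umod. Those 8 hold a single SB273005 library, replicate 4, which is assumed to vary like the other groups, so they say little about SB273005. DESeq2 called 21 in BAPN+Cilengitide vs BAPN and 39 between the inhibitors, where the 8 libraries gave 34.

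With the replicate block, 2 of the 10 were called in each inhibitor group against PBS and Hpx was not (-4.95, adjusted p = 0.0524, and -3.48, adjusted p = 0.104). Of 19 same-numbered pairs, 12 deviated together with r over 0.1 (-0.16 to 0.34). Pairs with unlike numbers were not compared, so these values do not decide whether the numbers pair samples. The reported fit does not use the numbers.

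Every change of sign was of a difference that had not passed the test. In BAPN+Cilengitide vs PBS, limma gave -0.01 with both pseudocounts for Hba-a1 and -0.09 and -0.10 for Hba-a2, and the replicate block -0.03, -0.07, -0.00 and -0.03 for Hba-a1, Hba-a2, Hbb-bs and Hbb-bt. With 1 library left out, these ran from -0.66 to 0.47, -0.69 to 0.46, -0.57 to 0.47 and -0.57 to 0.42, Alas2 from -0.88 to 0.38, Fth1 from -0.13 to 0.03 and Hp from -0.38 to 1.52. In BAPN vs PBS, Hp was at 0.14 by limma with both pseudocounts, 0.39 with the block and -0.53 to 0.82 with 1 library left out, and Fth1 at -0.08 to 0.04. In BAPN+Cilengitide vs BAPN, leaving out 1 library gave -0.10 to 0.06 for Fth1 and -0.21 to 1.06 for Hp. In BAPN+SB273005 vs BAPN, Hmox1 was at -0.02 in the 8 libraries, and leaving out 1 library gave -0.18 to 0.50 for Hmox1 and -1.36 to 0.21 for Hpx. Between the inhibitors, the 8 libraries gave -0.57 for Hp and -0.16 for Ftl1, and leaving out 1 library gave -0.07 to 1.34, -0.15 to 0.26 and, for Hmox1, -0.67 to 0.05. The cause was not tested.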
